A study of Mus musculus with 11 samples.

Results

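The genes described here bear the symbols of subunits of the respiratory chain and of ATP synthase, the machinery of oxidative phosphorylation in mitochondria. They were chosen by symbol: names that start with Nduf followed by a, b, c, s or v and a digit, with Uqcr, with Cox followed by a digit from 4 to 8, with Atp5 or with mt-, leaving out the tissue isoforms Cox7a1, Cox8b and Cox6a2. This gave 92 of 22196 genes, of which 79 are nuclear (38 of complex I, 8 of complex III, 15 of complex IV and 18 of ATP synthase) and 13 lie on the mitochondrial chromosome. RNA was sequenced from the inguinal mammary gland of mice on a normal chow diet labelled PND16.5 and taken 16 days after delivery. The 6 Knockout libraries came from Tsc1-fl/fl; Adipoq-Cre-Tg/+ animals and the 5 Wild-Type libraries from Tsc1-fl/fl; Adipoq-Cre-+/+ animals, so that both groups carried the floxed Tsc1 alleles. Tsc1 encodes part of the complex that restrains the growth kinase complex mTORC1, and the Adipoq promoter drives Cre in fat cells, so the question is how whole-gland transcripts differ when adipocytes lose Tsc1. The samples are separate in the labels, which do not say whether litters or batches were shared, so the p-values measure the spread between these libraries. In whole-gland RNA, fewer cells of a type and less RNA per cell cannot be told apart.

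Complex I takes electrons from NADH, complex III passes them from ubiquinol to cytochrome c, and complex IV hands them to oxygen. The protons that these complexes move across the inner mitochondrial membrane drive ATP synthase. Each of the 4 assemblies combines nuclear-encoded proteins, imported from the cytosol, with proteins made inside the organelle from the mitochondrial chromosome, so the nuclear and mitochondrial transcripts come from separate transcription systems. Milk secretion consumes much ATP, and secretory epithelial cells of the lactating gland are rich in mitochondria.

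The mitochondrial genes are packed so closely that some of their coding sequences overlap, which bears on how reads can be divided between them. The overlapping ends of mt-Atp8 and mt-Atp6, both encoding membrane subunits of ATP synthase, span 43 bases at chrM:7927-7969 on the plus strand (GRCm38), which is 21.1% of mt-Atp8. The ends of mt-Nd4l and mt-Nd4, both encoding membrane-arm subunits of complex I, share 7 bases at chrM:10167-10173. They are shown from the reference, 5′ to 3′ with 20 bases on each side, with the shared bases in capitals.
mt-Atp8/mt-Atp6: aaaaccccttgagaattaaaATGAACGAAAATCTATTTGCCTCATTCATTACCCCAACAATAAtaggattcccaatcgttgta
mt-Nd4l/mt-Nd4: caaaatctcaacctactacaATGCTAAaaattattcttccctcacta
A further 14 bases, chrM:13552-13565, are shared by mt-Nd5 and mt-Nd6 on opposite strands, and mt-Atp6 and mt-Co3 share 1 base.

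The nuclear subunits are transcribed from separate promoters on many chromosomes. Of the 79 nuclear genes, 61 matched a RefSeq promoter window (GRCm38.p6, 250 bases before to 50 after the start of transcription). In each nuclear complex, the window of the gene with the smallest p-value among those with an entry is shown. These genes lead the comparisons below except in complex III, where Uqcrq had a smaller p than Uqcrc1 but no entry. The windows were searched on both strands for 4 short motifs, GCGCATGC for NRF1, CCGGAAG for ETS factors, AAGATGGC for YY1 and AAGGTCA for ERR receptors, factors known for acting on respiratory chain genes. Capitals mark the matches, read 5′ to 3′ in the direction of the gene.
Ndufs7: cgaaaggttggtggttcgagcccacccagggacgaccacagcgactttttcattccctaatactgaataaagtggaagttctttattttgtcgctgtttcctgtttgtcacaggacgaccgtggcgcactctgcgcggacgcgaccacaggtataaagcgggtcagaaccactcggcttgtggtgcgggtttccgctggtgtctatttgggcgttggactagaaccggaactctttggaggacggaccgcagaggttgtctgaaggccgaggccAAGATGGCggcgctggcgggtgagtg
Uqcrc1: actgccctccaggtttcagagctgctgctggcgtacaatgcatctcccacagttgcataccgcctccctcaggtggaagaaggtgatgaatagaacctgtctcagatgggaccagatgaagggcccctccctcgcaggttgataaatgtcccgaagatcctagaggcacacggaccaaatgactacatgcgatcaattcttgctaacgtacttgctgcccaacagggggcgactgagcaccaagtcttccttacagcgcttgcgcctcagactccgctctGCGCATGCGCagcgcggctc
Cox8a: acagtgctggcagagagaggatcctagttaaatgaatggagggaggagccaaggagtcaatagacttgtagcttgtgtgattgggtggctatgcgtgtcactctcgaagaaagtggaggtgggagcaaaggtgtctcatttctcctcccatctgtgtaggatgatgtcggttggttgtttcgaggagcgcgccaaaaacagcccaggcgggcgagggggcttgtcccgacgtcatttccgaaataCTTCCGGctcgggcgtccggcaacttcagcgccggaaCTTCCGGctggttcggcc
Atp5o: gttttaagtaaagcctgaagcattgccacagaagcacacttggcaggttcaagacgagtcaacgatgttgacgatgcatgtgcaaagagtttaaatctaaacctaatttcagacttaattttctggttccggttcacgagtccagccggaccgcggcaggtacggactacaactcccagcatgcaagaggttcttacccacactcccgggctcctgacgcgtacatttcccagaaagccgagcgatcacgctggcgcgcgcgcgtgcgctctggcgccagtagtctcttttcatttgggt
The Ndufs7 window (chr10:80249199-80249498, plus strand) held the YY1 letters once. In the Uqcrc1 window (chr9:108936398-108936697, plus strand) the NRF1 letters occurred on both strands in overlapping copies, and in the Cox8a window (chr19:7217567-7217866, minus strand) the ETS letters occurred at 2 places on the reverse strand. None of the 4 motifs was found in the Atp5o window (chr16:91931581-91931880, minus strand). Over the 61 matched nuclear members, 9 (14.8%) held the NRF1 letters against 3.05% of all 27025 genes with a window. The ETS letters were found in 14 (23.0%) against 9.93%, those of YY1 in 9 (14.8%) against 3.19%, and those of ERR in 7 (11.5%) against 5.38%. Such a match is a string of letters and does not show binding.

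Both sets of transcripts were abundant, and the mitochondrial ones stood far above the nuclear ones per length. In TPM (a transcript abundance corrected for length), the median over all 11 libraries was 821 for the 13 mitochondrial genes and 75.6 for the nuclear genes tested. mt-Co1, which encodes the catalytic subunit of complex IV, averaged 2190 TPM, 8.16 times the 268 TPM of Cox4i1, the largest nuclear-encoded subunit of the same complex. The other transcripts for complex IV core subunits were close to it, with 2732 TPM for mt-Co2 and 2456 TPM for mt-Co3, followed by mt-Cytb of complex III with 1394 TPM. Among the complex I transcripts the order ran from mt-Nd1 with 821 TPM, mt-Nd4l with 772, mt-Nd3 with 519, mt-Nd4 with 514 and mt-Nd2 with 507 to mt-Nd5 with 172 TPM. The middle 3 of these, mt-Nd3, mt-Nd4 and mt-Nd2, lay closer together than the spread between libraries, an SD of 43.0 TPM for mt-Nd3 among the wild types. mt-Nd6, the one protein gene on the opposite strand, was lowest at 39.7 TPM, and mt-Nd5, which ends beside it, was 4.33 times as high.

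Of the 2 ATP synthase transcripts on the mitochondrial chromosome, mt-Atp6 averaged 2959 TPM and mt-Atp8 8401 TPM. That value of mt-Atp8 rests on an effective length of only 24.7 bases, the part of a short coding sequence on which a fragment can start. The same limit applies to many of the highest nuclear levels. The leading nuclear members were the small subunits Uqcr11 of complex III with 422 TPM, on an effective length of 10 bases, and Cox6a1 of complex IV with 372 TPM, followed by Cox8a with 308, Cox4i1 with 268, Cox6b1 with 249, Ndufa1 of complex I with 247 and Uqcr10 with 236 TPM. Among these, Cox4i1 had an effective length of 202 bases and Cox6a1 one of 79.3 bases, so the limit touches them less. In all, 22 of the 92 members had a mean effective length under 50 bases, since the deposited tables listed mostly coding sequences and the median coding length was 411 bases for nuclear members against 1407 for all genes tested. Levels of such short members are uncertain, whereas the comparison of genotypes uses each gene against itself.

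**Figure D1:**
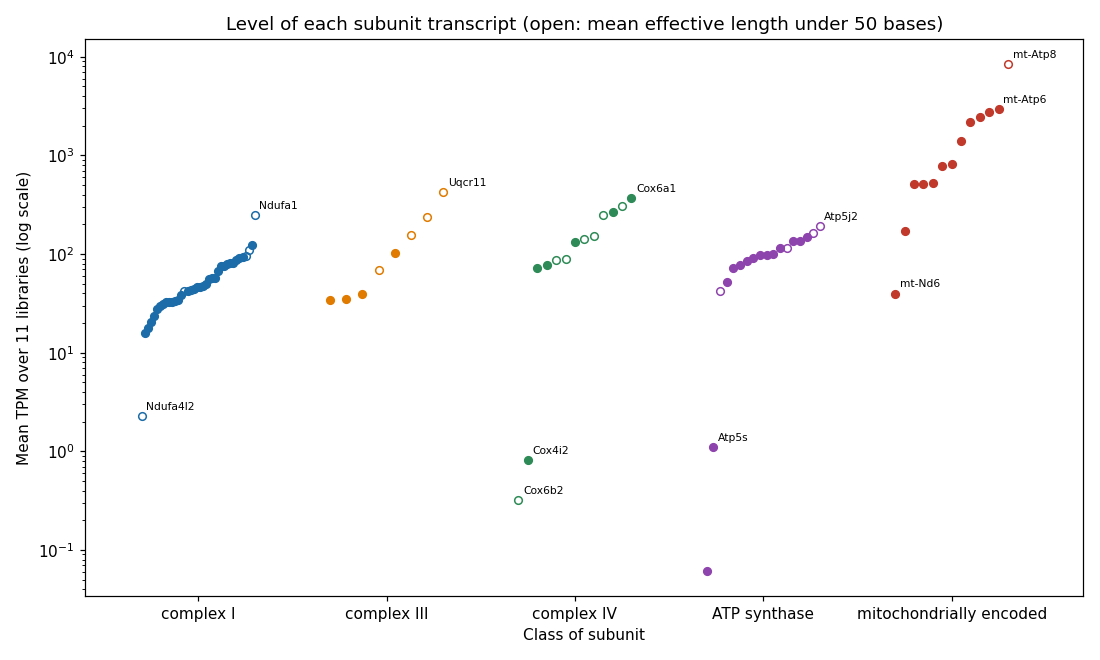
Mean TPM over 11 libraries of each subunit gene with reads (log axis), by class, with open circles for genes whose mean effective length was under 50 bases. The mitochondrially encoded genes run from 39.7 TPM for mt-Nd6 to 8401 TPM for mt-Atp8, and most nuclear genes lie between 15.8 TPM for Ndufa10 and 422 TPM for Uqcr11. Well below them are Ndufa4l2, Atp5s, Cox4i2, Cox6b2 and, lowest, a gene model with the symbol Atp5o that had few reads.

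No subunit transcript differed between knockout and wild-type glands past the threshold, and the fitted differences were small and mostly in the same direction. After removal of genes with low counts, 88 of the 92 members were tested, 75 nuclear and 13 mitochondrial. None had an adjusted p-value under 0.05 by edgeR's quasi-likelihood test (7 of 12716 genes, 0.055%, did) or by DESeq2 (135 genes, 0.96%). At an unadjusted p under 0.05 there were 6 members, all of them nuclear and lower in knockout, where 12.4% of all genes reached that level and 6.08% did so with lower values. The fitted value was lower in knockout for 69 of 75 nuclear members (92.0%) and 12 of 13 mitochondrial members (92.3%), against 51.7% of all genes. The nuclear count was 57 of 75 without Wild-Type 5, and from 63 of 74 to 70 of 75 when any other single library was left out. In no member did the 6 knockout libraries lie all below or all above the 5 wild-type libraries, as they did in 0.535% and 0.786% of all genes.

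The median log2 fold change was -0.10 over the nuclear members, which is a difference of -6.73%, and -0.07 over the mitochondrial members, or -4.54%. It was -0.01 over all genes tested and also over the 5870 genes in the range of expression of the nuclear members, 53.7% of which were lower. The nuclear and the mitochondrial medians thus differed by -0.03 (log2), an order that single libraries turned: without Wild-Type 5 the medians were -0.07 and -0.12, and without Knockout 4 they were -0.10 and -0.11. With TMM scaling, the 95% interval stayed within a 1.5-fold difference either way for 72 of 75 nuclear and 12 of 13 mitochondrial members. It did so for 8109 of all 12716 genes tested and for 5002 of the 5870 genes in that range of expression. The intervals do not cover the choice of scaling. The median coefficient of variation within a genotype was 10.2% for nuclear members and 14.9% for mitochondrial members. It was 16.4% for all genes tested, but 11.8% for the 5870 genes in the range of expression of the nuclear members. The count of 6 at the unadjusted level rested on single libraries: it was 22 without Wild-Type 4, 3 without Knockout 5, 2 without Knockout 1 or Wild-Type 2, and 1 without Wild-Type 3 or Wild-Type 5. The share of all genes at that level in these runs is not given here, so the counts show only that the number moved.

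**Figure D2:**
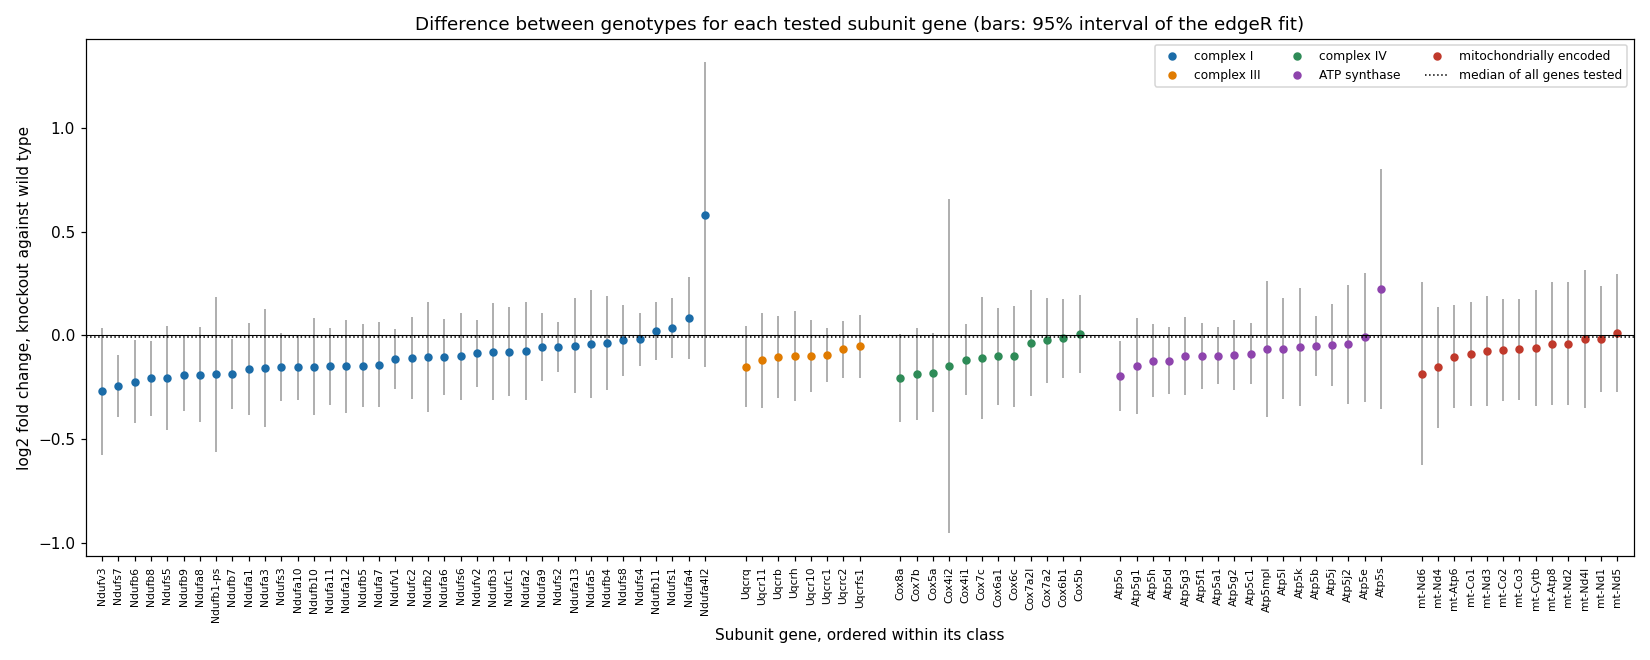
Log2 fold change of each of the 88 tested subunit genes, knockout against wild type (TMM scaling), with the 95% interval of the edgeR fit, ordered within the 4 nuclear classes and the mitochondrially encoded class. Most points lie a little below 0, near -0.10 for nuclear and -0.07 for mitochondrial genes, and the widest intervals belong to Ndufa4l2, Cox4i2 and Atp5s, which had few reads.

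Classes were assigned by symbol, so Ndufa4 and Ndufa4l2 are counted in complex I. So is Ndufb1-ps, which the annotation lists as a non-coding RNA of a bidirectional promoter. Of the 38 nuclear complex I members 34 were lower in knockout, with a median log2 fold change of -0.11. At an unadjusted p under 0.05 there were 5 of the 38, all lower in knockout, where 6.08% of all genes were lower at that level and 12.4% reached it in either direction. The gene with the smallest p was Ndufs7 (chr10:80249121-80256794), whose product carries an iron-sulfur cluster close to the ubiquinone site. In CPM (read counts scaled to a common library size) it stood at 37.0, 37.5, 37.4, 34.4 and 37.8 in Wild-Type 1 to 5, and at 29.0, 29.4, 36.2, 30.3, 31.03 and 30.6 in Knockout 1 to 6. Only Knockout 3 reached into the wild-type range, and only Wild-Type 4 lay below it. The log2 fold change was -0.24 with an SE of 0.07 (edgeR adjusted p = 0.263, DESeq2 adjusted p = 0.0713).

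The other 4 complex I members at that level, Ndufb8, Ndufb6, Ndufb7 and Ndufb9, encode accessory subunits of the membrane arm. Ndufb8 stood at 53.2, 59.2, 61.7, 49.8 and 67.2 CPM in the wild-type and at 48.8, 48.1, 56.6, 49.3, 48.7 and 51.4 CPM in the knockout libraries. Its log2 fold change was -0.21 with an SE of 0.08 (edgeR adjusted p = 0.358), and Wild-Type 1 and 4 lay within the knockout range. Ndufb6 averaged 10.9 CPM in wild-type (SD 1.285, n = 5) and 9.31 CPM in knockout glands (SD 0.719, n = 6). Its log2 fold change was -0.22 with an SE of 0.09 (edgeR adjusted p = 0.368). Ndufb7 and Ndufb9, named after their values were seen, had log2 fold changes of -0.18 and -0.19. Of the 31-base words in their sequences, Ndufb8 shares 14.8% and Ndufb9 33.7% with other listed genes. Their reads thus depend in part on how they were divided between genes.

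The nuclear complex I transcripts with the highest TPM were those of the accessory subunits Ndufa1 and Ndufa2. Ndufa1 averaged 21.4 CPM in wild-type (SD 1.57, n = 5) and 19.1 CPM in knockout glands (SD 2.75, n = 6), with a fitted log2 difference of -0.16. Ndufa2 was at 23.2 CPM (SD 3.87, n = 5) against 22.0 CPM (SD 2.01, n = 6), with a fitted log2 difference of -0.08. The 4 members with a fitted value above 0 were Ndufa4l2, Ndufa4, Ndufs1 and Ndufb11, the last pair named after their values were seen, with log2 fold changes of 0.03 and 0.02. Ndufs1 encodes the largest subunit of the complex, with several iron-sulfur clusters.

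All 8 complex III members were lower in knockout, within a narrow range of log2 fold changes from -0.15 to -0.05 and a median of -0.10. Uqcrc1 (chr9:108936633-108949623), a large core protein of the complex, stood at 114, 125, 129, 113 and 121 CPM in the wild-type and at 112, 113, 116, 107, 115 and 115 CPM in the knockout libraries. The 3 highest values were wild-type ones, and Wild-Type 1 and Wild-Type 4 lay within the knockout range. Its log2 fold change of -0.09 with an SE of 0.06 (edgeR adjusted p = 0.536) had a 95% interval from -0.22 to 0.03. The small subunit Uqcrq had the smallest p of the complex, with 9.01 CPM in wild-type (SD 0.811, n = 5) and 8.11 CPM in knockout glands (SD 0.747, n = 6) and a log2 fold change of -0.15 with an SE of 0.09 (edgeR adjusted p = 0.519). The transcripts of the small subunits Uqcr10 and Uqcr11, the highest per length among the nuclear members of the complex, had log2 fold changes of -0.10 and -0.12.

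In complex IV, 11 of the 12 tested members were lower in knockout, with a median log2 fold change of -0.10. Cox8a (chr19:7215153-7217616), the smallest subunit of the complex, led by p-value. It stood at 25.1, 26.3, 24.0, 22.1 and 31.9 CPM in the wild-type and at 20.1, 22.0, 25.8, 20.8, 22.4 and 23.8 CPM in the knockout libraries. Wild-Type 5 was high, and the remaining wild-type values lay within or just above the knockout range. The log2 fold change was -0.20 with an SE of 0.10 (edgeR adjusted p = 0.419).

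Cox5a, which encodes a matrix-side subunit, averaged 32.3 CPM in wild-type (SD 3.75, n = 5) and 28.6 CPM in knockout glands (SD 2.31, n = 6), with a fitted log2 difference of -0.18 with an SE of 0.09 (edgeR adjusted p = 0.431). Cox7b, a small membrane subunit, had 10.7 CPM (SD 1.33, n = 5) against 9.41 CPM (SD 0.976, n = 6) and a log2 fold change of -0.18. The leading nuclear transcripts of complex IV per length were those of Cox6a1, at 88.0 CPM in wild-type (SD 12.2, n = 5) and 82.1 CPM in knockout glands (SD 10.4, n = 6), and of Cox8a. Cox4i1 was at 163 CPM (SD 16.3, n = 5) against 150 CPM (SD 9.68, n = 6), with a fitted log2 difference of -0.12. The 1 tested member above 0 among these was Cox5b, named after its values were seen, at 0.01.

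Of the 17 ATP synthase members tested, 16 were lower in knockout, and the median log2 fold change was -0.09. Atp5o (chr16:91925214-91931687), which encodes the stalk protein that confers sensitivity to oligomycin, was the 1 of these 17 at an unadjusted p under 0.05. Of all genes 12.4% reached that level, and 6.08% did so with lower values. Atp5o was lower in knockout. Its values were 91.0, 99.5, 101, 77.7 and 104 CPM in the wild-type and 77.5, 82.9, 85.2, 83.9, 82.4 and 84.1 CPM in the knockout libraries. Wild-Type 4 lay at the bottom of the knockout range and the other wild-type libraries above all knockouts. The log2 fold change was -0.20 with an SE of 0.08 (edgeR adjusted p = 0.350). A gene model with the same symbol (ENSMUSG00000116933) shares 94.0% of its 31-base words with other listed genes and had too few reads to be tested, so the reads of Atp5o depend on how they were divided between the models.

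Atp5a1, which encodes a subunit of the catalytic head, was at 399 CPM in wild-type (SD 22.7, n = 5) and 373 CPM in knockout glands (SD 13.2, n = 6), with a fitted log2 difference of -0.10 with a 95% interval from -0.23 to 0.04. Atp5d, part of the central stalk, was at 48.9 CPM (SD 4.42, n = 5) against 44.9 CPM (SD 2.77, n = 6), with a fitted log2 difference of -0.12. The transcripts of Atp5j2 and Atp5e, the highest of the nuclear ATP synthase members per length, had log2 fold changes of -0.04 and -0.01, and that of Atp5e rested on 2.33 and 2.31 CPM. Atp5s, the member above 0 and named after its values were seen, had a log2 fold change of 0.22 on 0.768 CPM in wild-type and 0.897 CPM in knockout glands.

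**Figure D3:**
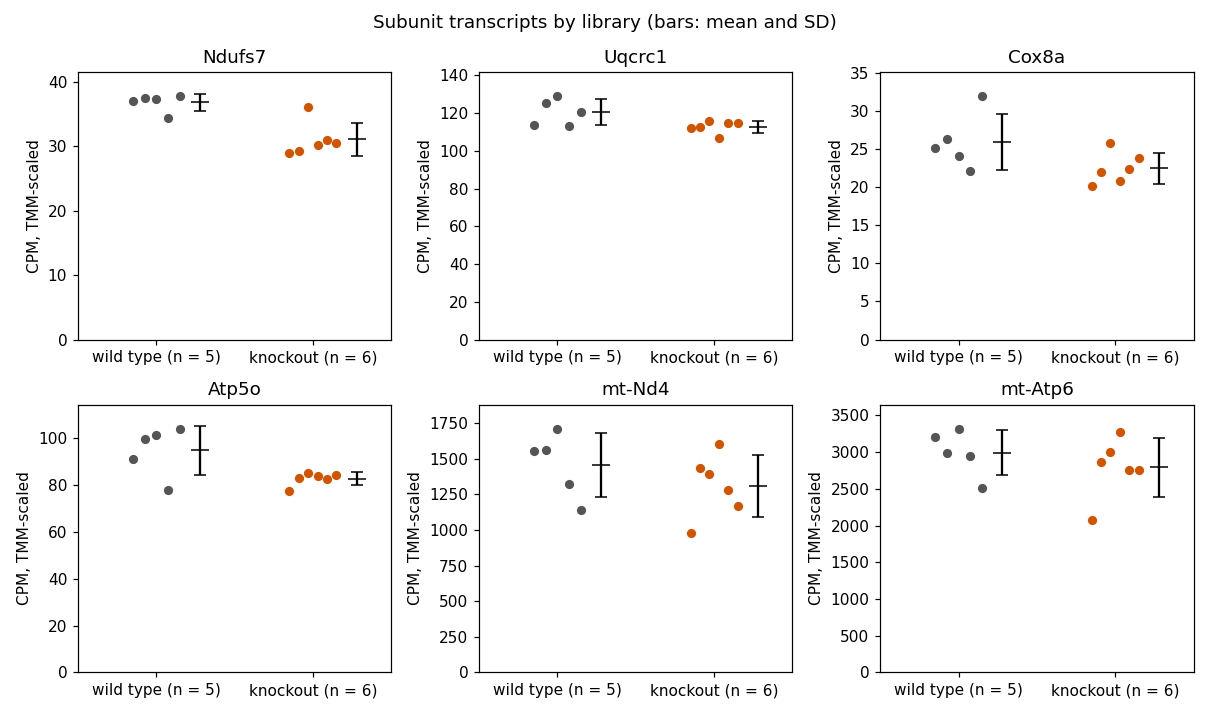
CPM after TMM scaling in each of the 5 wild-type and 6 knockout libraries for 6 subunit genes, with the mean and SD of each genotype as a bar. Knockout points of Ndufs7 lie at 29.0 to 31.03 CPM except 1 at 36.2, 1 wild-type point of Atp5o lies at 77.7 among the knockouts, and the points of mt-Nd4 and mt-Atp6 overlap widely.

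The mitochondrially encoded transcripts varied more between libraries of a genotype than between genotypes. The smallest p belonged to mt-Nd4 (chrM:10167-11544), with 1554, 1560, 1709, 1320 and 1140 CPM in Wild-Type 1 to 5 and 982, 1438, 1390, 1601, 1281 and 1170 CPM in Knockout 1 to 6. Knockout 1 and Wild-Type 5 were the lowest libraries, 1 of each genotype, and Wild-Type 3 and Knockout 4 the highest. The log2 fold change was -0.15 with an SE of 0.13 (edgeR adjusted p = 0.672). mt-Atp6 (chrM:7927-8607) showed the same order at its ends, from 2081 CPM in Knockout 1 and 2514 in Wild-Type 5 to 3280 in Knockout 4 and 3315 in Wild-Type 3, and its log2 fold change was -0.10 with an SE of 0.11 (edgeR adjusted p = 0.752).

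mt-Nd6 averaged 26.2 CPM in wild-type (SD 8.17, n = 5) and 23.1 CPM in knockout glands (SD 5.25, n = 6), with a fitted log2 difference of -0.18 with an SE of 0.20 (edgeR adjusted p = 0.749). mt-Atp8 was at 609 CPM (SD 94.6, n = 5) against 592 CPM (SD 99.5, n = 6), with a fitted log2 difference of -0.04. mt-Co1, named here because it took the most mitochondrial reads, between 26.1% and 29.9% of them in each library, was at 6759 CPM (SD 709, n = 5) against 6357 CPM (SD 925, n = 6). The 1 mitochondrial gene above 0 was mt-Nd5, at 0.01. The mitochondrial median moved from -0.07 to -0.12 without Wild-Type 5, when all 13 genes were lower. Without Knockout 1 it was -1.7e-05 and without Wild-Type 3 it was -0.0017, with 7 of 13 genes lower in both cases. The median of all genes was then 0.00023 and -0.0075, so that without Wild-Type 3 the mitochondrial median lay above it.

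For several subunits the genome holds more than 1 gene, and the gland used mainly the widely expressed form. Cox4i1 exceeded Cox4i2, the form known from lung, by 332 times in mean TPM (177 to 737 in single libraries), and Cox4i2 had 8 to 28 counts per library. Ndufa4, named for complex I and now known as a subunit of complex IV, exceeded its paralogue Ndufa4l2, known to respond to low oxygen, by 48.4 times (23.8 to 94.5). Ndufa4 was at 10.5 CPM in wild-type (SD 1.43, n = 5) and 11.2 CPM in knockout glands (SD 0.618, n = 6), and Ndufa4l2, with 5 to 19 counts per library, was at 0.236 ± 0.0394 and 0.355 ± 0.159 CPM. Their log2 fold changes were 0.08 (SE 0.09) and 0.58 (SE 0.34; edgeR adjusted p = 0.739 and 0.505). The interval of Ndufa4l2, from -0.15 to 1.31, does not bound its difference well.

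The isoforms known from testis were at or near 0. Cox6b2 had 14 counts in all 11 libraries, against 249 TPM for Cox6b1. For Cox7b2 and Cox8c no read was assigned, which allows up to 3 counts per library, while their widely expressed forms Cox7b and Cox8a averaged 87.3 and 308 TPM. Cox7a2 and Cox7a2l, a protein known for joining complexes III and IV, were on a par, at 89.2 and 76.6 TPM, a ratio of 1.17 (0.772 to 1.502). Their log2 fold changes were -0.02 and -0.04, and that of Cox6b1 was -0.01.

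The 3 genes for the ring subunit of ATP synthase, whose mature proteins are the same, were all well expressed, Atp5g3 at 135 TPM, Atp5g1 at 97.1 and Atp5g2 at 71.9. Atp5g1 exceeded Atp5g2 in every library, by 1.13 to 1.61 times, and was below Atp5g3 in every library, at 0.652 to 0.823 of its level. Log2 fold changes were -0.15 for Atp5g1, -0.09 for Atp5g2 and -0.10 for Atp5g3. None of the 3 shares a word of 31 bases with another gene of the deposited tables. All such words of Atp5g1 and 99.3% of those of Atp5g2 do occur in annotated transcripts of genes that the tables do not list, and none of Atp5g3's do.

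The nuclear classes had similar scores within a library, and the mitochondrial genes did not follow them in every library. A score was taken for each class as the mean log2 CPM after centring each gene on its mean over the 11 libraries. For all nuclear members it ran from -0.14 to 0.20 in wild-type and from -0.12 to 0.04 in knockout glands, so that the wild-type range enclosed the knockout range. Wild-Type 5 had the highest nuclear score, 0.20, and a low mitochondrial score, -0.25. Knockout 1 had the lowest mitochondrial score, -0.41, with a nuclear score of -0.03. The 4 nuclear classes were all above 0 in Wild-Type 2, 3 and 5 and all below 0 in Wild-Type 1 and 4. In knockout glands all 4 were below 0 in Knockout 1, 2 and 5 and above 0 in Knockout 3. They differed in sign in Knockout 4, from -0.08 for complex III to 0.01 for ATP synthase. The same held in Knockout 6, from -0.07 for complex IV to 0.04 for ATP synthase.

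Mitochondrial reads outnumbered nuclear subunit reads by 6.88 ± 0.932 (SD, n = 5) to 1 in wild-type and 6.95 ± 0.972 (SD, n = 6) to 1 in knockout glands. The lowest ratios were 5.37 in Wild-Type 5 and 5.38 in Knockout 1, and the highest was 8.33 in Knockout 4. This ratio needs no scaling between libraries, and its means differed by 0.0614, much less than the spread within either genotype.

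**Figure D4:**
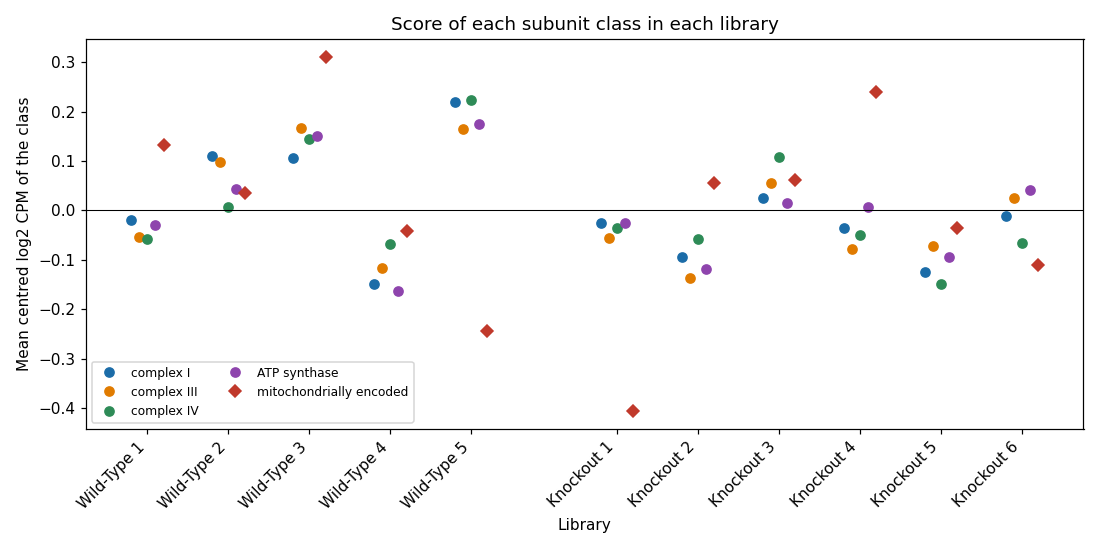
Mean centred log2 CPM of each class of subunit genes in each of the 11 libraries, with circles for the 4 nuclear classes and diamonds for the mitochondrially encoded genes. The 4 circles of a library lie close together, while the diamonds of Wild-Type 5 (-0.25) and Knockout 1 (-0.41) lie well below the circles.

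The sign of the small differences depended on the scaling. Most reads came from milk genes: a list of 12 milk and secretory genes held 68.9% ± 2.40 (SD, n = 5) of the reads in wild-type and 65.3% ± 2.53 (SD, n = 6) in knockout glands. All 12 had lower fitted values in knockout and none passed the threshold. With library size as the only scaling, the median of all genes was 0.18 (log2), against -0.01 with TMM factors. The nuclear median was then 0.10, with 70 of 75 members higher in knockout, and the mitochondrial median was 0.12, with 13 of 13 higher. Relative to the median of all genes, they were -0.09 and -0.06 with library size and -0.09 and -0.06 with TMM. The members were thus lower in knockout only relative to the median gene, and not as shares of all reads.

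As a share of all reads, the 13 mitochondrial genes made up 2.18% ± 0.199 (SD, n = 5) in wild-type and 2.36% ± 0.207 (SD, n = 6) in knockout glands. With the milk list left out of the total, the shares were 7.05% ± 0.721 and 6.85% ± 0.872, so the order was reversed. The nuclear members made up 0.319% ± 0.0249 and 0.342% ± 0.0272 of all reads, and 1.03% ± 0.0789 and 0.988% ± 0.0370 without the milk list. In each of these shares the ranges of the genotypes overlapped.

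**Figure D5:**
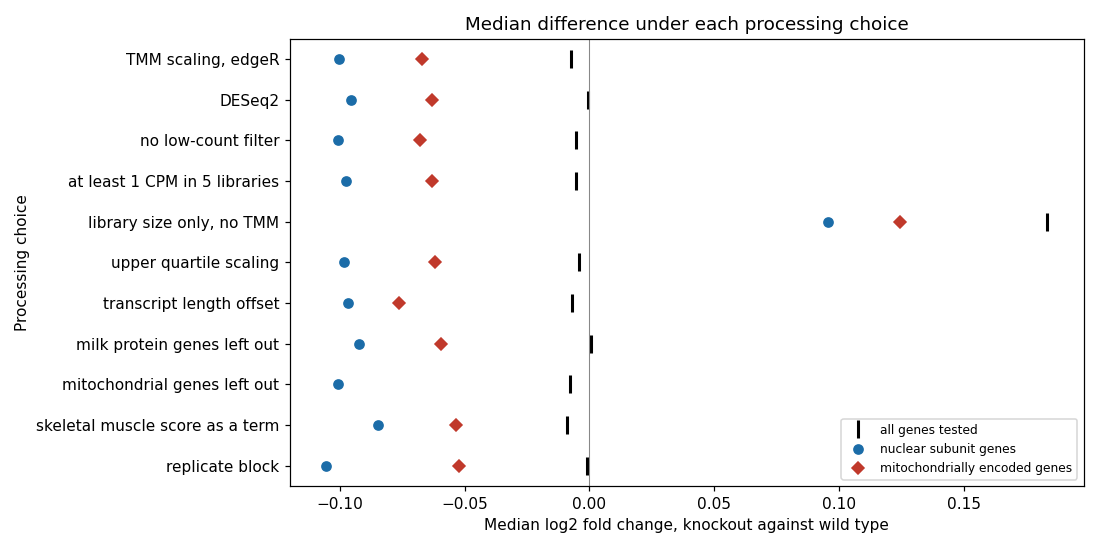
Median log2 fold change, knockout against wild type, of the nuclear and mitochondrially encoded subunit genes and of all genes tested, for each processing choice (the choice without mitochondrial genes has no mitochondrial point). With library size only, all 3 medians lie above 0, at 0.10, 0.12 and 0.18, and in the choices drawn, which do not include leaving out single libraries, both subunit medians lie to the left of the median of all genes.

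The genes that build, supply and regulate the complexes showed no difference past the threshold either. Over 11 lists with 105 genes found by symbol, 95 were tested and 0 passed by edgeR or by DESeq2. At an unadjusted p under 0.05 there were 8 of the 95, against 12.4% of all genes, and 6 of the 95 were lower at that level, against 6.08% of all genes. Lower fitted values in knockout were found for 60 of the 95 (63.2%, against 51.7% of all genes), with a median log2 fold change of -0.02. Complex II and the electron carriers had 6 of 8 tested genes lower, led by Sdhb, the iron-sulfur subunit of complex II, at 65.7 CPM in wild-type (SD 4.29, n = 5) and 59.2 CPM in knockout glands (SD 4.87, n = 6) and a log2 fold change of -0.15 with an SE of 0.07 (edgeR adjusted p = 0.438). Ndufab1, the acyl carrier subunit of complex I that the symbols did not reach, was at -0.08.

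Assembly factors were lower for 9 of 14 tested in complex I, 4 of 5 in complex III, 15 of 20 in complex IV and 1 of 2 in ATP synthase. Their leading genes were Ecsit at -0.25 (edgeR adjusted p = 0.387), Bcs1l, which inserts the iron-sulfur protein of complex III, at -0.36 (adjusted p = 0.340), Coa6, a copper chaperone for complex IV, at -0.30 (adjusted p = 0.464) and Tmem70 at -0.05 (adjusted p = 0.856). Among genes for copying and transcribing mitochondrial DNA 10 of 14 were lower, led by Polg2, an accessory subunit of the mitochondrial DNA polymerase, at -0.37 (edgeR adjusted p = 0.396). Among genes for mitochondrial RNA 7 of 15 were lower, led by Fastk at -0.18 (edgeR adjusted p = 0.473). Carriers of ATP, phosphate and protons had 4 of 8 lower, led by the ADP/ATP exchanger gene Slc25a5 at -0.22 (edgeR adjusted p = 0.370).

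Of 8 tested regulators 3 were lower, and the leading one was Esrra, which encodes an ERR nuclear receptor that activates oxidative phosphorylation genes. It stood at 14.2, 12.2, 12.3, 12.2 and 14.7 CPM in the wild-type and at 7.35, 7.16, 10.8, 13.6, 6.65 and 12.2 CPM in the knockout libraries. Knockout 1, 2, 3 and 5 were below all wild-type libraries, Knockout 6 was level with the lowest of them and Knockout 4 lay within their range. The log2 fold change was -0.45 with an SE of 0.18 (edgeR adjusted p = 0.363). The coactivator gene Ppargc1a was too low to test, at 0.0569 to 0.429 CPM.

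The 3 tissue isoforms that the choice of symbols left out were rare. Cox8b, known from muscle and brown fat, was at 0.315, 0.501, 0.503, 0.425 and 0.386 CPM in the wild-type and at 1.38, 0.614, 1.16, 0.481, 0.734 and 0.825 CPM in the knockout libraries. All knockouts but Knockout 4 were above the wild types, and the log2 fold change was 1.02 with an SE of 0.30 (edgeR adjusted p = 0.269). Cox6a2, known from striated muscle, reached 1.35 CPM in Knockout 1 and at most 0.140 CPM elsewhere, and Cox7a1 had at most 0.488 CPM.

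Markers of other cell types also varied between libraries. All 10 skeletal muscle markers had higher fitted values in knockout, and their summed level ran from 2.14 to 225 CPM in wild-type and from 3.13 to 2319 CPM in knockout glands, highest in Knockout 1. With a muscle score as a term in the fit, the nuclear median was -0.08 and the mitochondrial median -0.05. Of 10 adipocyte markers 8 were higher (1038 to 1477 CPM summed in wild-type and 1448 to 1935 in knockout glands), and so were 5 of 5 luminal, 5 of 5 myoepithelial and 5 of 5 fibroblast markers. All 3 brown fat markers tested were lower, but Cidea held nearly all of the list's summed level. It averaged 2383 of 2407 CPM in wild-type and 1803 of 1823 CPM in knockout glands. Ucp1 was at no more than 1.22 CPM in any library, so the sum of this list is not a measure of brown fat. Of the immune markers tested, 4 of 4 for B cells (1.93 to 69.8 and 0.808 to 13.8 CPM), 4 of 4 for T cells and 3 of 5 for macrophages were lower, as were 1 of 4 for endothelium and 4 of 5 for red blood cells. No marker passed the threshold by edgeR, and 3 of the 10 adipocyte markers did by DESeq2, against 0.96% of all genes. In every list the summed levels of the markers overlapped between the genotypes. Their part in the subunit values was not tested, apart from the muscle score. Tsc1 itself was at 10.7 CPM in wild-type (SD 1.11, n = 5) and 10.1 CPM in knockout glands (SD 1.33, n = 6) (log2 fold change -0.09; edgeR adjusted p = 0.772), counted over the whole gene in all cells of the gland.

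Many subunit genes have processed pseudogenes or overlapping neighbours. Of the 92 members, 60 share at least 1 word of 31 bases with transcripts of other genes and 24 share more than 50% of theirs, but only 9 share any with genes listed in the deposited tables. Among those with no competitor in these words was Ndufs7, whereas 100% of the words of Atp5g1 and 99.5% of those of mt-Atp6 also occur in other genes' transcripts, none of them listed in the tables for Atp5g1 and 2% in listed genes for mt-Atp6. Reads from such copies could have been assigned to the listed member. Exons of 29 members overlap a gene on the opposite strand and those of 13 a gene on the same strand, and the strand setting of the counting is not given in the sources used here.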

How the data were processed

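Strand-specific RNA libraries were made from total RNA, per the labels' protocols. The authors quantified transcripts with Salmon 1.3.0 and used DESeq2 1.28.1 and the build GRCm38.p6, per the submitters' processing notes; the deposited tables give, per the file headers, an estimated count, a TPM and an effective length for 58204 transcripts. The aligner's index and bias options are not given in the sources used here.

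Transcripts were assigned to genes with GENCODE M21 (57452 matched; the rest held 0.195% to 0.265% of the reads). The estimated counts of a gene's transcripts were added and rounded to whole numbers. Depth was 25817975 to 37894237 estimated reads per library. Listed lengths were within 3 bases of the coding length for 93.9% of 57318 transcripts. After filterByExpr, 12716 genes were tested with edgeR 4.0.16 (quasi-likelihood F test, robust, TMM scaling, Benjamini-Hochberg adjustment over all genes, threshold 0.05) in R 4.3.3, with genotype as the only term and all 11 libraries. CPM values are after TMM scaling, and log2 CPM for scores used a prior count of 2. TPM served for levels only. DESeq2 1.42.0, other filters, other scalings, a length offset, a muscle term, the replicate number as a block and leaving out each library were alternatives. The limit that a count of 0 allows was set at 3 counts and covers counting error only.

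Genes were named by a rule: Tsc1; every member past the threshold; in each of 5 classes the 3 members with the smallest p and the 2 with the highest TPM; fixed paralogue groups; the leading gene of each pathway list; and the 3 isoforms left out. Exceptions are marked in the text. The members and lists were chosen with earlier results of these data known, so no p-value is given for a list. Cycs, Cox17 and Prorp were not matched by symbol and were not analysed here. The authors' own table of normalized gene values was not used. Promoter windows are from RefSeq, and a missing entry was not looked for elsewhere.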

Additional observations from a re-analysis of the deposited data

Results flagged for a closer look

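Single libraries stood apart from the rest of their genotype in 12 of 148 sets of values examined. About 1 in 20, or 7.4, would do so among independent sets without skew. The sets here share libraries and some are skewed, so the 12 cannot be judged against that number. The sets were, by genotype, the subunit genes named by rule and tested, the class scores, the shares and ratio of reads, the leading pathway genes, the left-out isoforms, Tsc1 and the summed markers of each cell type. Ndufs7 accounted for a pair of them: Wild-Type 4 was low at 34.4 CPM where the other wild types were at 37.0 to 37.8, and Knockout 3 was high at 36.2 CPM where the other knockouts were at 29.0 to 31.03. Cox7a2 was high in Wild-Type 5 at 13.8 CPM, against 10.3 to 11.2 in the other wild types. Atp5o was low in Knockout 1 at 77.5 CPM, against 82.4 to 85.2 in the other knockouts. Atp5g3 was high in Knockout 3 at 57.9 CPM, against 47.5 to 51.3 in the others. The share of mitochondrial reads taken by mt-Co1 was low in Knockout 2 at 26.1%, against 28.7% to 29.3% in the other knockouts.

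Knockout 1 was high in Cox6a2, at 1.35 CPM against 0 to 0.102 in the other knockouts. It was also high in the summed markers of skeletal muscle (2319 CPM against 3.13 to 357), of B cells (13.8 CPM against 0.808 to 2.98) and of T cells (7.04 CPM against 1.57 to 2.71). Wild-Type 4 was low in the summed markers of brown adipocytes, at 1822 CPM against 2445 to 2692 in the other wild types. Of these 1822 CPM, 1802 were Cidea, so this is a value of Cidea rather than of the list. Wild-Type 4 was high in the summed markers of luminal epithelium, at 778 CPM against 404 to 496.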

How the results depend on the processing

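No nuclear and no mitochondrial subunit gene passed the threshold under any alternative run. The nuclear median stayed between -0.140 (without Wild-Type 4) and -0.0731 (without Wild-Type 5) when single libraries were left out, and the mitochondrial median between -0.122 and -1.7e-05. With library size as the only scaling the nuclear median was 0.0955, by construction of that scale; for single named genes this setting was read relative to the median of all genes. Over all genes, 7 were called by edgeR, 135 by DESeq2, 12 with the muscle term and between 0 and 28 when a library was left out. The replicate numbers did not pair the libraries: correlations of same-numbered deviations were -0.0228, -0.0963, 0.187, -0.223 and -0.207, and only number 3 correlated best with itself. With the replicate block, which left out Knockout 6, 0 genes were called, as without Knockout 6 alone. With the block the medians were -0.105 and -0.0523. There, 2 nuclear members had an unadjusted p under 0.05, and the share of all genes at that level is not given here. The mitochondrial share of reads differed by 0.176 percentage points, by -0.197 with milk genes left out of the total, and by 0.104 to 0.2402 without single libraries. Of the named genes' alternatives, 630 kept the sign and 29 reversed it, all for differences smaller than their SE: Cox7a2 and Cox6b1 were 0.0123 and 0.0335 with the length offset, Atp5e 0.0216 with the muscle term, and Cox4i2 and Cox6b1 0.0363 and 0.0112 with the replicate block. Without single libraries the ranges were -0.0593 to 0.0530 for Cox6b1, -0.0600 to 0.0543 for Atp5e, -0.106 to 0.0343 for Atp5j2, -0.0543 to 0.0610 for Cox7a2, -0.398 to 0.109 for Cox4i2, -0.126 to 0.0468 for mt-Atp8, -0.0916 to 0.104 for Cox7a2l, -0.298 to 0.00663 for mt-Nd6 and -0.148 to 0.00932 for Ndufa2. Depth limits Ndufa4l2, Cox4i2 and Cox6b2, which had at most 28 counts in a library.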
